A study of Mus musculus with 9 samples.

Results

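Described here are 10 genes of the p53 pathway in cultured mouse pancreatic stellate cells: Trp53, which encodes p53, and 9 of its known targets, Mdm2, Cdkn1a, Ccng1, Sesn1, Phlda3, Trp53inp1, Fas, Bax and Bbc3. They were found by gene symbol among the 17156 rows of the deposited count table, and all 10 were present and passed the filter on low counts, which left 13613 genes for testing. Pancreatic stellate cells are fibroblast-like cells of the pancreas that make the matrix of pancreatic tumors when activated.

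The cells were wild-type PSC lines from the pancreas of C57BL/6J mice, in culture for 4 days in 1 of 3 media. The CM-JAKi group received medium conditioned by pancreatic tumor organoids together with 500 nM AZD1480, an inhibitor of the JAK kinases that signal from cytokine receptors. The CM group received the conditioned medium without the inhibitor, and the MG-CM group received the control medium, DMEM with 5% FBS. Each group had 3 replicates. Replicate 1 was the line PSC4, replicate 2 was PSC5-I and replicate 3 was PSC5-II. Each replicate number also had its own source of conditioned medium, so that line and medium source change together in the CM and CM-JAKi groups. A vehicle for the groups without inhibitor was not given in the sources used here. No agent that damages DNA is named in the labels.

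p53 is a transcription factor that is held at a low level by MDM2, a ubiquitin ligase whose own gene p53 activates. When DNA damage or other stress stabilises the protein, it binds pairs of half-sites near its targets and raises genes that stop the cell cycle, temper oxidative stress and growth signalling, or start apoptosis. Because the protein is regulated mostly after translation, the Trp53 transcript need not move with its targets.

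The promoters of 3 members are shown because they hold, in this set, the site closest to the p53 consensus (Cdkn1a and Ccng1) or belong to the gene with the smallest p in the inhibitor comparison (Sesn1). The sequences come from RefSeq, GRCm38.p6, and give the 250 bases before an annotated start of transcription, 5′ to 3′ on the gene's strand. Capitals mark the 2 half-sites of the best match to the p53 consensus, each of 10 bases with its core C and G required, with up to 13 bases between them. Since the consensus is its own reverse complement, a single search covers both strands.
Cdkn1a: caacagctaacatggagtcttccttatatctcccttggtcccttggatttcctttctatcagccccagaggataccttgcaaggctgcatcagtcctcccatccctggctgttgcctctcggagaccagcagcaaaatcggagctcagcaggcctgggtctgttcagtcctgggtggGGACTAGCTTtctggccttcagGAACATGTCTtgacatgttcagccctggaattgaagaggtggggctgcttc
Ccng1: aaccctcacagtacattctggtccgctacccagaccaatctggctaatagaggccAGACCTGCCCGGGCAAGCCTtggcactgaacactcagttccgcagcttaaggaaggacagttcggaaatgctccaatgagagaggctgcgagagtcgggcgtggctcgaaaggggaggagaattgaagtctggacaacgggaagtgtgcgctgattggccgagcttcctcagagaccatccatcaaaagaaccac
Sesn1: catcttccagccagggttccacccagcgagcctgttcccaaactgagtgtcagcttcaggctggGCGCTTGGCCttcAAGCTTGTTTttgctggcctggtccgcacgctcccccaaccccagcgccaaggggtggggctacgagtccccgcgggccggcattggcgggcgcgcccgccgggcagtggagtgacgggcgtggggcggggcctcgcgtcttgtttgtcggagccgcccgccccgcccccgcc
The Cdkn1a stretch is chr17:29090729-29090978 on the plus strand, at the more upstream of its 2 annotated starts. Its half-sites had 0 mismatches and lay 12 bases apart, between 73 and 42 bases before the start. The pair marked was chosen by fewest mismatches before spacing. Its second half-site is directly followed by tgacatgttc, which also resembles a half-site and is not in capitals. The Ccng1 stretch is chr11:40755287-40755536 on the minus strand, with adjoining half-sites that together had 1 mismatch, between 195 and 176 bases before the start. The Sesn1 stretch is chr10:41887189-41887438 on the plus strand, at the downstream of its 2 annotated starts, with half-sites 3 bases apart and 2 mismatches, between 186 and 164 bases before the start.

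Searched over 300 bases per promoter (250 before and 50 after the start), a pair of half-sites with 0 mismatches was found in at least 1 promoter of 0.074% of 27025 genes, with at most 1 mismatch in 0.718%, and with at most 2 in 4.71%. Of the 9 members with a promoter in the RefSeq table, 1 (Cdkn1a) met the first limit, 2 (Cdkn1a and Ccng1) the second and 4 (with Bax and Sesn1) the third. A single half-site with no mismatch was found for 9.55% of genes and for 6 of the 9 members: Bax, Ccng1, Cdkn1a, Mdm2, Sesn1 and Trp53. Phlda3, Bbc3 and Fas had none, and Trp53inp1 had no promoter in that table and was not searched. A match describes these letters and is not evidence of binding.

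Libraries held 25625806 to 32466018 counts, and the lowest value of any member was 156 counts (Bbc3, MG-CM replicate 1). Mesenchymal markers were abundant, with means over the 9 libraries of 1198 CPM (counts scaled to a common library size) for Vim and 534 CPM for Pdgfrb, whereas the classical stellate marker Gfap had 0 to 6 counts and Des a mean of 2.01 CPM. Of the markers of other cell types, Ptprc (leukocytes) had 0 to 1 counts, Epcam (epithelium) 0 to 6, Cpa1 (acinar cells) 0 to 1 and Pecam1 (endothelium) 5 to 17. Others of the same lists were well above 0: Cd14 (leukocytes) had 400 to 3287 counts, Sox9, Krt19 and Muc1 (ductal cells) 355 to 762, 22 to 648 and 51 to 475, and Cela1 (acinar cells) 181 to 423. On the first principal component of all genes the CM libraries lay at -79.5, -37.6 and -35.8, apart from the other 6, which ran from -0.722 to 47.4.

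**Figure D1:**
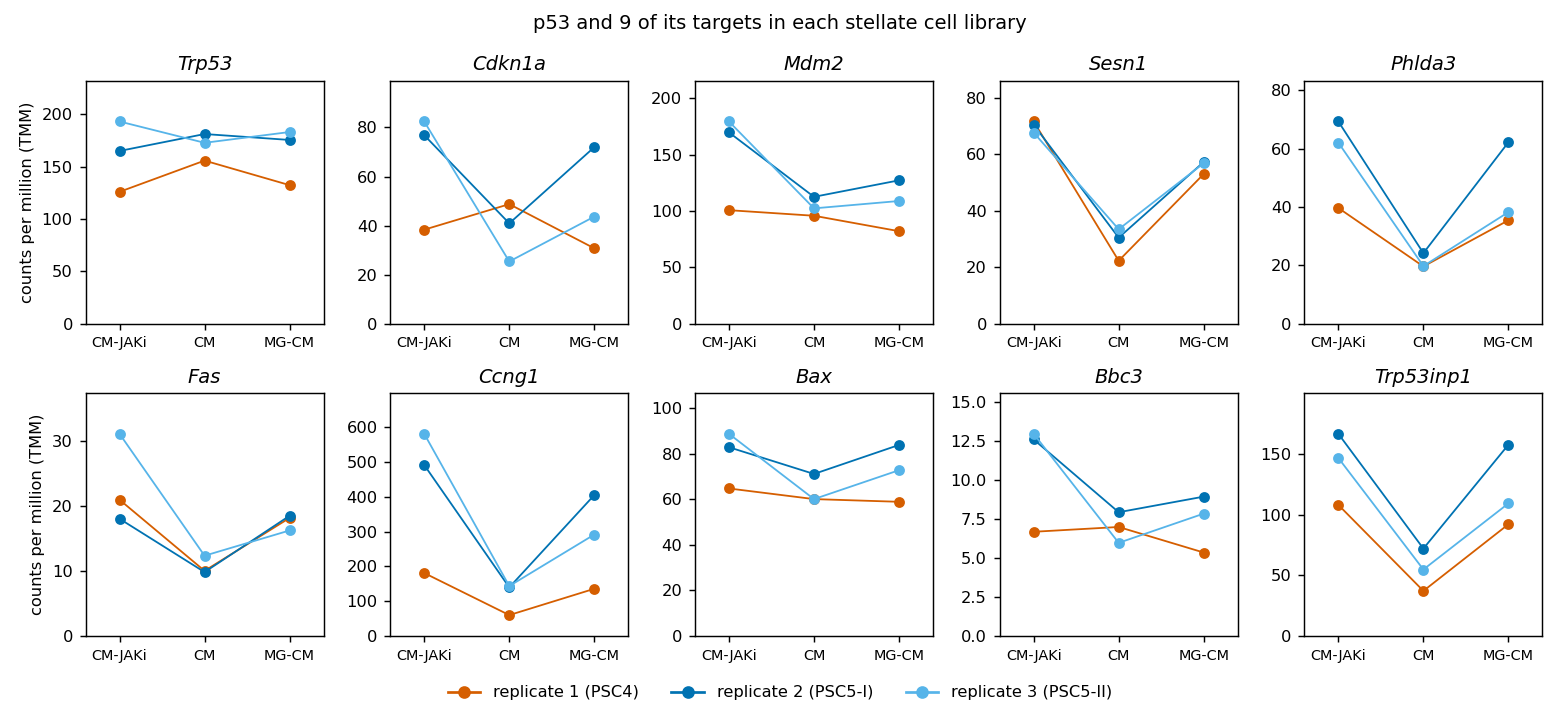
CPM (TMM-scaled) of each gene, 1 panel per gene with its own axis from 0, in CM-JAKi, CM and MG-CM libraries; points are libraries and lines join those with the same replicate number. Sesn1, Phlda3, Fas, Trp53inp1 and Ccng1 dip in CM on every line, while Trp53 stays between 126 and 193 CPM.

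Levels are given as CPM after TMM scaling, in the order of replicates 1, 2 and 3, and the 3 media were compared with edgeR's quasi-likelihood test. Changes are log2 fold changes with their standard error, p-values are Benjamini-Hochberg adjusted over the 13613 genes, and a gene was called at an adjusted p under 0.05. In bulk RNA, fewer cells of a type and less RNA per cell cannot be told apart.

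The Trp53 transcript itself showed no detectable change with the media. It had 126, 165 and 193 CPM in CM-JAKi, 156, 181 and 173 CPM in CM, and 132, 175 and 183 CPM in MG-CM. The 3 groups overlapped, and the PSC4 library was the lowest in each. The fitted difference was -0.07 ± 0.17 between CM-JAKi and CM (95% interval -0.46 to 0.31, adjusted p = 0.794) and 0.05 ± 0.17 between CM and MG-CM (95% interval -0.33 to 0.44, adjusted p = 0.872), and both signs turn with library-size scaling. Wrap53, the neighbour of Trp53 on the opposite strand, was not called in the 3 media comparisons either. No annotated gene overlapped Trp53 in the GENCODE annotation of GRCm38, which is not the build named by the submitters.

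Mdm2, the ligase that marks p53 for degradation and is itself a p53 target, had 101, 169.8 and 179 CPM in CM-JAKi, 95.8, 113 and 102 CPM in CM, and 82.1, 127 and 109 CPM in MG-CM. The high values were the 2 PSC5 libraries with inhibitor, and the PSC4 library with inhibitor lay within the CM range. The difference between CM-JAKi and CM, 0.53 ± 0.23, was not called (adjusted p = 0.132), but was called when same-numbered libraries were paired (adjusted p = 0.0269). Between CM and MG-CM the difference was -0.03 ± 0.23 (adjusted p = 0.942).

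Among the genes of growth arrest, Cdkn1a, which encodes the cyclin-dependent kinase inhibitor p21 and is the standard readout of p53 activity, was not called in the 3 comparisons of media over all 9 libraries. It had 38.3, 76.8 and 82.4 CPM in CM-JAKi, 48.7, 40.9 and 25.4 CPM in CM, and 30.7, 71.97 and 43.7 CPM in MG-CM. In both PSC5 replicates the CM library was the lowest of the 3, whereas in PSC4 it was the highest. The difference of log2 CPM between CM-JAKi and CM was -0.35 in replicate 1, 0.91 in replicate 2 and 1.70 in replicate 3, and over the groups 0.78 ± 0.39 (adjusted p = 0.188). Without the 3 libraries of replicate 1 it was 1.27 ± 0.30 and was called (adjusted p = 0.0370). Between CM and MG-CM the 3 differences were 0.66, -0.81 and -0.78, and -0.35 ± 0.39 over the groups (adjusted p = 0.604).

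Ccng1, which encodes cyclin G1, a target that recruits a phosphatase to MDM2, had the largest change of the 10 in the inhibitor comparison. It had 181, 492 and 581 CPM in CM-JAKi, 60.3, 139.9 and 144 CPM in CM, and 136, 405 and 292 CPM in MG-CM. All CM-JAKi libraries stood above all CM libraries, and within each replicate number CM was the lowest medium, but within each medium the PSC4 library was far below the PSC5 ones. Ccng1 rose by 1.87 ± 0.54 in CM-JAKi over CM (adjusted p = 0.0428), a call that held in only 2 of the 9 fits that left out 1 library, with an adjusted p of up to 0.122. It was lost on leaving out any of CM replicates 1, 2 and 3, MG-CM replicates 2 and 3 and CM-JAKi replicates 2 and 3, and also with no filter on low counts or with these 2 groups fitted alone (adjusted p of up to 0.0653). With same-numbered libraries paired, its adjusted p was 0.000356. Between CM and MG-CM it differed by -1.28 ± 0.53, not called (adjusted p = 0.154) without pairing and called with it (adjusted p = 0.00255).

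The genes Sesn1, Phlda3 and Trp53inp1, which act on stress and growth signalling, were each called in both comparisons that involve CM. Sesn1 encodes sestrin 1, which lowers mTORC1 signalling and oxidative stress. It had 71.6, 70.4 and 67.6 CPM in CM-JAKi, 22.3, 30.5 and 33.4 CPM in CM, and 52.99, 57.2 and 56.8 CPM in MG-CM, and the 3 groups did not overlap at all. Sesn1 rose by 1.28 ± 0.14 in CM-JAKi over CM (adjusted p = 0.000849) and fell by 0.95 ± 0.14 in CM against MG-CM (adjusted p = 0.00984). Both calls held in all 9 fits that left out 1 library.

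Phlda3, which encodes a pleckstrin-homology protein that competes with AKT for membrane lipids, had 39.7, 69.3 and 62.1 CPM in CM-JAKi, 19.6, 24.2 and 19.8 CPM in CM, and 35.5, 62.2 and 38.3 CPM in MG-CM. Every CM library was below every library of the other media, which overlapped with each other. Phlda3 rose by 1.43 ± 0.26 in CM-JAKi over CM (adjusted p = 0.00874), a call kept in 9 of 9 fits that left out 1 library. Against MG-CM, Phlda3 in CM fell by 1.10 ± 0.26 (adjusted p = 0.0331), a call kept in 3 of 9 and lost without CM replicate 1, 2 or 3, MG-CM replicate 2 or 3, or CM-JAKi replicate 3 (adjusted p of up to 0.112).

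Trp53inp1, whose product promotes p53 phosphorylation and autophagy, had 108, 167 and 147 CPM in CM-JAKi, 37.2, 72.1 and 54.8 CPM in CM, and 92.1, 158 and 109 CPM in MG-CM. Again the CM libraries lay below all others. Trp53inp1 rose by 1.36 ± 0.28 in CM-JAKi over CM (adjusted p = 0.0138), a call kept in 8 of 9 fits that left out 1 library and lost without CM-JAKi replicate 2 (adjusted p = 0.0549). It fell by 1.13 ± 0.28 in CM against MG-CM (adjusted p = 0.0387), lost without CM replicate 1 or 3, MG-CM replicate 2 or 3, or CM-JAKi replicate 2 or 3 (adjusted p of up to 0.142), and with no filter or these 2 groups alone (up to 0.0667).

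Of the genes of cell death, Fas rose with the inhibitor, and Bax and Bbc3 were not called. Fas, the cell-surface death receptor, had 20.9, 18.01 and 31.1 CPM in CM-JAKi, 10.01, 9.82 and 12.3 CPM in CM, and 18.1, 18.5 and 16.2 CPM in MG-CM. The CM libraries were below all others, and the CM-JAKi and MG-CM libraries overlapped. Fas rose by 1.12 ± 0.20 in CM-JAKi over CM (adjusted p = 0.00765), kept in 9 of 9 fits that left out 1 library. Its difference of -0.72 ± 0.20 in CM against MG-CM missed the threshold (adjusted p = 0.0535), and passed it in 5 of 6 other settings, among them the pairing of same-numbered libraries (adjusted p = 0.0231), but in only 2 of 9 fits that left out 1 library (adjusted p of up to 0.167).

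Bax, the effector that permeabilises the outer mitochondrial membrane, had 64.8, 82.9 and 88.8 CPM in CM-JAKi, 60.1, 71.1 and 60.1 CPM in CM, and 58.9, 83.9 and 72.8 CPM in MG-CM. These ranges overlapped in every comparison. Its difference between CM-JAKi and CM was 0.30 ± 0.16 (adjusted p = 0.204, or 0.0493 with pairing), and between CM and MG-CM -0.17 ± 0.16 (adjusted p = 0.524). Bbc3, which encodes the BH3-only protein PUMA, had 6.68, 12.6 and 12.96 CPM in CM-JAKi, 6.99, 7.93 and 5.97 CPM in CM, and 5.35, 8.93 and 7.84 CPM in MG-CM. As with Mdm2, the highest values were the 2 PSC5 libraries with inhibitor. Bbc3 differed by 0.62 ± 0.28 between CM-JAKi and CM (adjusted p = 0.154) and by -0.08 ± 0.28 between CM and MG-CM (adjusted p = 0.882).

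**Figure D2:**
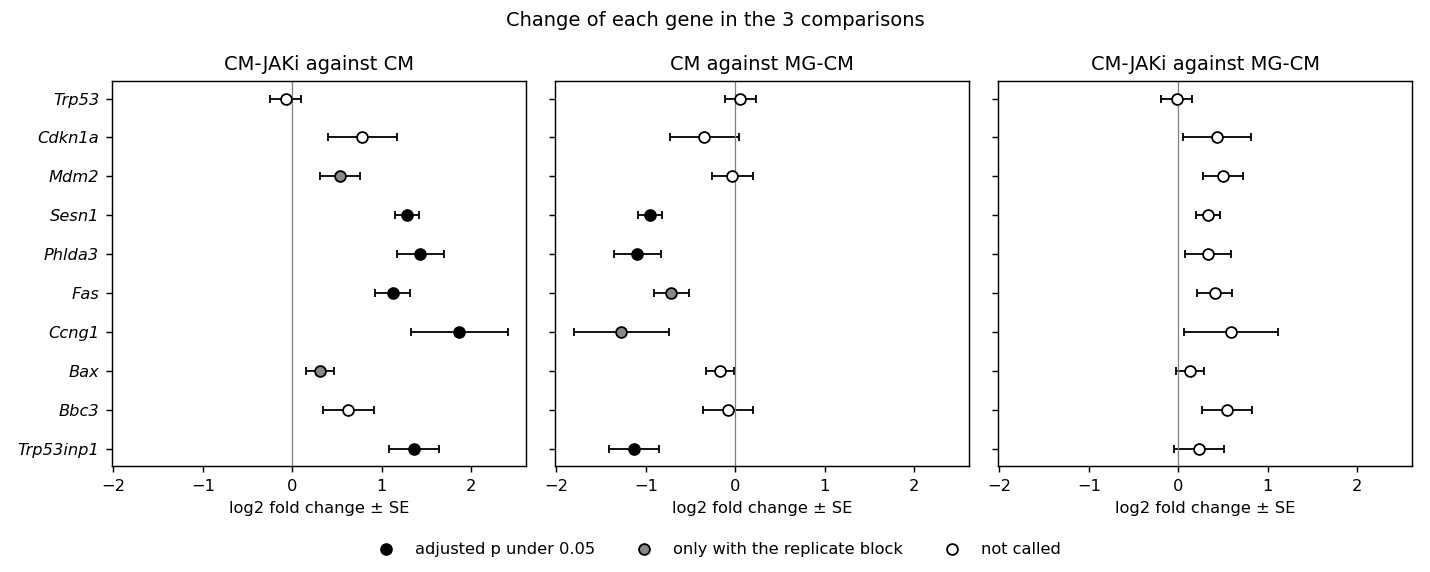
Log2 fold change ± SE of each gene (x axis) in the 3 comparisons, from edgeR; black points passed an adjusted p of 0.05, grey points did so only with same-numbered libraries paired, and white points did neither. The 5 black points of CM-JAKi against CM all lie at 1.12 or above, the 3 of CM against MG-CM at -0.95 or below, and the panel of CM-JAKi against MG-CM holds none.

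Counted together, 5 of the 10 genes rose in CM-JAKi over CM (Sesn1, Phlda3, Fas, Ccng1 and Trp53inp1) and none fell. Over all tested genes 10.1% were called higher and 8.93% lower. With same-numbered libraries paired 7 of the 10 rose, against 18.6% of all genes. The median log2 difference of the 10 was 0.95, against 0.00802 for all genes, and 9 of 10 were positive. The same 5 genes had every CM-JAKi library above every CM library, which held for 20.1% of all genes. Without the 3 libraries of replicate 1 (PSC4) the count was 9 of 10, all but Trp53, against 11.5% of all genes called higher. It was 1 without those of replicate 2 (0.514% of all genes), 2 without those of replicate 3 (1.45%), and 3 without the library CM-JAKi replicate 2 alone (545 of the 13613 genes).

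In CM against MG-CM, 3 of the 10 fell (Sesn1, Phlda3 and Trp53inp1) and none rose, against 5.39% of all genes called lower and 4.85% called higher. With same-numbered libraries paired 5 fell, against 12.8% of all genes. The median of the 10 was -0.53, against 0.00575 for all genes. Those 3 and Fas had every CM library below every MG-CM library, as did 16.8% of all genes. The count was 1 without CM replicate 1, CM replicate 3, MG-CM replicate 2 or MG-CM replicate 3, fits in which 0.764% to 3.67% of all genes were called lower, and 0 without all of replicate 2 (0.0147% of all genes) or all of replicate 3 (0.154%). This comparison and the one above share the CM libraries, so that low CM values enter both.

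In CM-JAKi against MG-CM, none of the 10 passed the threshold with edgeR or with DESeq2, and Sesn1 alone had an unadjusted p under 0.05. Over all genes 1.01% were called. The 10 differences ran from -0.02 to 0.59 with a median of 0.37, and 9 were positive. For Sesn1 all CM-JAKi libraries were above all MG-CM libraries, as for 8.87% of genes, with a difference of 0.33 ± 0.13 (adjusted p = 0.411). The intervals were wide: that of Ccng1 ran from -0.60 to 1.78 and that of Cdkn1a from -0.44 to 1.30.

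Marker lists of cell types also moved with the media. The summed CPM of the stellate and fibroblast list was 4765 to 5607 in CM-JAKi, 2415 to 3449 in CM and 3917 to 4655 in MG-CM, and 2 of its 7 tested genes (Col1a1 and Col1a2) rose in CM-JAKi over CM, while Vim fell in CM against MG-CM. With same-numbered libraries paired, 5 of the 7 rose in CM-JAKi over CM, 3 fell in CM against MG-CM, and 3 rose in CM-JAKi over MG-CM, where none was called without pairing. The paired shares of all genes were 18.6%, 12.8% and 252 of the 13613 genes in turn. Without pairing, 10.1% of all genes were called higher in CM-JAKi over CM and 5.39% lower in CM against MG-CM. The endothelial list summed to 7.97 to 15.7 CPM in CM-JAKi, 2.17 to 2.64 CPM in CM and 4.85 to 6.10 CPM in MG-CM. Of its 4 tested genes, 2 (Emcn and Tek) were called higher in CM-JAKi than in CM and lower in CM than in MG-CM. Emcn made up most of the CM-JAKi sum, with a mean of 7.54 of 10.8 CPM. Kdr and Pecam1 were called in neither and had lower means in CM-JAKi than in CM. Kdr averaged 0.938, 1.09 and 2.01 CPM in CM-JAKi, CM and MG-CM, and Pecam1 0.267, 0.380 and 0.246 CPM. Emcn had 205, 427 and 91 counts in CM-JAKi, 0, 0 and 1 counts in CM, and 27, 27 and 14 counts in MG-CM. The defining genes Pecam1 and Cdh5 had 5 to 17 and 0 to 15 counts over the libraries. The leukocyte list, nearly all of it Cd14, ran the other way, at 14.2 to 31.1 CPM in CM-JAKi, 32.4 to 116 CPM in CM and 21.1 to 33.4 CPM in MG-CM, and Cd14 fell in CM-JAKi against CM by 1.74 ± 0.50 (adjusted p = 0.0410). So did the acinar list, nearly all of it Cela1, at 5.60 to 7.97 CPM in CM-JAKi, 9.61 to 14.01 CPM in CM and 7.34 to 8.49 CPM in MG-CM, and Cela1 fell in CM-JAKi against CM by 0.68 ± 0.20 (adjusted p = 0.0428). The summed ductal list overlapped, at 27.8 to 43.7 CPM in CM-JAKi, 33.6 to 35.3 CPM in CM and 33.3 to 47.3 CPM in MG-CM, and its genes differed in sign. Muc1 fell in CM-JAKi against CM by 1.83 ± 0.48 (adjusted p = 0.0326), and Krt19 differed by 2.23 ± 0.82 (adjusted p = 0.0914, or 0.00358 with pairing). Of these 3 calls, that of Muc1 held in 4 of 9 fits that left out 1 library, that of Cd14 in 2 and that of Cela1 in 0. The part of these markers in the results was not tested.

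**Figure D3:**
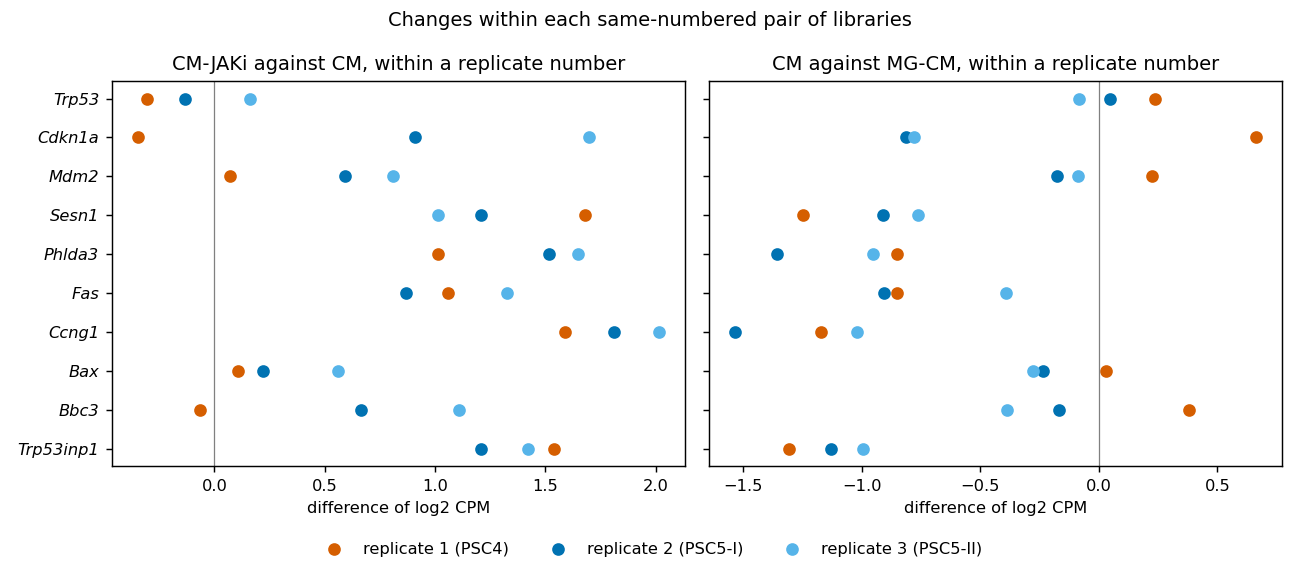
Difference of log2 CPM between same-numbered libraries (x axis) for each gene, CM-JAKi minus CM on the left and CM minus MG-CM on the right, coloured by replicate. For Trp53, Cdkn1a, Mdm2, Phlda3, Bbc3 and Bax the replicate 1 point (PSC4) is the lowest on the left and the highest on the right, and for Sesn1 and Trp53inp1 it is the highest on the left and the lowest on the right. The same CM library enters both differences with opposite sign, so a mirrored order is partly built in.

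Levels of the p53 genes also differed between PSC4 and PSC5 libraries. PSC4 is a single replicate in 3 media and PSC5 is 2 replicates in 3 media, and same-numbered libraries deviate together, so the fit below treats as independent libraries that are not, and its p-values are too small for a difference between lines. In a fit with medium and line as terms, 5 of the 10 were lower in PSC4 (3 libraries) than in PSC5 (6 libraries), against 10.5% of all genes called lower, and all 10 differences were negative. Ccng1 averaged 126 ± 61.1 CPM in PSC4 and 342 ± 182 CPM in PSC5 (SD over 3 and 6 libraries), a difference of -1.39 ± 0.12 (edgeR adjusted p = 0.000871). Trp53 averaged 138 ± 15.7 CPM in PSC4 and 178 ± 9.65 CPM in PSC5, a difference of -0.37 ± 0.08 (adjusted p = 0.0163). Mdm2 differed by -0.49 ± 0.11 (adjusted p = 0.0206), Trp53inp1 by -0.61 ± 0.14 (adjusted p = 0.0189) and Bax by -0.31 ± 0.09 (adjusted p = 0.0371), the last called in 2 of 9 fits that left out 1 library. Cdkn1a (-0.42), Phlda3 (-0.47), Bbc3 (-0.52), Sesn1 (-0.18) and Fas (-0.10) were not called, although Cdkn1a was without CM replicate 1 (-0.98 ± 0.25, adjusted p = 0.0381). Without MG-CM replicate 1 or CM-JAKi replicate 1 the count was 1, Ccng1, whose call held in 9 of 9 such fits. Among all genes, 791 were called lower without MG-CM replicate 1 and 494 without CM-JAKi replicate 1. Wrap53 differed by -0.37 ± 0.07 (adjusted p = 0.0123), close to Trp53. Stellate and fibroblast markers differed too, with 4 of the 7 tested (Vim, Col1a2, Des and Acta2, by -0.41 to -1.70) lower and Pdgfra (0.76 ± 0.21, adjusted p = 0.0404) higher in PSC4, and their part in the result was not tested.

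Of the 33 other p53 targets, 6 were lower and 2 higher in PSC4 than in PSC5, among them Dcxr (-0.91 ± 0.16, adjusted p = 0.00844), the adenylate kinase gene Ak1 (-0.64 ± 0.12, adjusted p = 0.00846), Ppm1d (-0.29 ± 0.07, adjusted p = 0.0195) and Steap3 (0.68 ± 0.15, adjusted p = 0.0176). Of all tested genes, 10.5% were called lower and 1427 of the 13613 higher, for this list and the regulators alike. None of the 33 was called without CM-JAKi replicate 1, and 12 were lower without CM replicate 1. Among all genes, 898 were called in the first of these fits and 1490 were lower in the second. Of the 16 regulators, 4 were higher and 1 lower, including the p53 antagonist Mdm4 (0.26 ± 0.06, adjusted p = 0.0183) and the deubiquitinase gene Usp7 (0.32 ± 0.06, adjusted p = 0.00899). Trp63, which encodes the p53 relative p63, was higher in PSC4 by 1.60 ± 0.31 (adjusted p = 0.0108).

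Whether the response differed between the lines was examined by the interaction of line and medium. With 1 PSC4 library per medium, the spread comes from PSC5 alone and each PSC4 library is assumed to vary like those, so that neither a call nor its absence establishes whether the lines differ. None of the 10 was called with edgeR for the CM change (0.228% of all genes called) or for the CM-JAKi change (0.367% of all genes). For Cdkn1a the CM change was higher in PSC4 than in PSC5 by 1.47 ± 0.53 (adjusted p = 0.290) and the CM-JAKi change differed by -1.61 ± 0.53 (adjusted p = 0.311). DESeq2 called the second of these, the 1 member it called (adjusted p = 0.0345). Bbc3 (-0.94 ± 0.31, adjusted p = 0.281) and Mdm2 (-0.63 ± 0.17, adjusted p = 0.229) had the same sign in the CM-JAKi change, and Sesn1 the opposite one (0.57 ± 0.14, adjusted p = 0.193).

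Beyond the 10, a list of 37 symbols of other p53 targets had 33 tested genes. In CM-JAKi over CM, 9 of the 33 rose and 2 fell, against 10.1% of all genes called higher and 8.93% lower, with a median of 0.26. Pltp, a phospholipid transfer protein, rose by 1.59 ± 0.25 (adjusted p = 0.00554), the nucleotide excision repair gene Ercc5 by 0.74 ± 0.09 (adjusted p = 0.00181) and Ei24 by 0.72 ± 0.15 (adjusted p = 0.0138). Tap1, a peptide transporter of antigen presentation that interferon also induces, fell by 2.19 ± 0.24 (adjusted p = 0.00105). The count of 9 was 2 without CM-JAKi replicate 2, 5 without CM replicate 1, CM replicate 3 or CM-JAKi replicate 3, 6 without CM replicate 2 or MG-CM replicate 3, 14 without CM-JAKi replicate 1, and 15 with pairing. The share of all genes called higher was 4% without CM-JAKi replicate 2, 8.79% without CM-JAKi replicate 1 and 18.6% with pairing. In the 3 fits with a count of 5 it was 5.77% to 7.14%. It was 7.47% without CM replicate 2 and 8.02% without MG-CM replicate 3. In CM against MG-CM 3 rose and 4 fell, against 4.85% of all genes called higher and 5.39% lower, with a median of -0.21: Pltp fell by 1.71 ± 0.26 (adjusted p = 0.00990) and Ercc5 by 0.47 ± 0.09 (adjusted p = 0.0188), while Ddit4, an mTORC1 inhibitor, rose by 1.15 ± 0.21 (adjusted p = 0.0174) and the kinase gene Plk3 by 0.62 ± 0.13 (adjusted p = 0.0219). Without MG-CM replicate 2 none rose and 1 fell, 2 rose and 2 fell without CM replicate 1 or MG-CM replicate 3, and 3 rose and 2 fell without CM replicate 3. With pairing 3 rose and 10 fell, against 1577 of the 13613 genes called higher and 12.8% lower. Without MG-CM replicate 2, 0.448% of all genes were called higher and 0.764% lower. These shares were 2.37% and 2.83% without CM replicate 1, and 2.12% and 3.06% without MG-CM replicate 3. Without CM replicate 3 they were 3.83% and 3.67%. Of the genes named, Tap1, Ercc5 and Pltp kept their inhibitor calls in 9 of 9 fits that left out 1 library and Ei24 in 8, and in CM against MG-CM Pltp did so in 9, Ddit4 and Ercc5 in 8 and Plk3 in 7.

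Among 16 tested regulators of p53, 1 rose and 3 fell in CM-JAKi over CM, with a median of -0.22. Of all tested genes, 10.1% were called higher and 8.93% lower. Rchy1, a ubiquitin ligase for p53, rose by 0.37 ± 0.08 (adjusted p = 0.0146), and the deacetylase gene Sirt1 fell by 0.52 ± 0.11 (adjusted p = 0.0149), the damage kinase gene Atm by 0.59 ± 0.15 (adjusted p = 0.0293) and Pml by 0.59 ± 0.16 (adjusted p = 0.0370). The number that fell was 1 without CM replicate 2 or 3 or CM-JAKi replicate 2, and 0 without CM-JAKi replicate 3, and Rchy1 was not called without CM-JAKi replicate 2 (adjusted p = 0.0552). In those fits 3.47% to 7.35% of all genes were called lower. With pairing 3 rose and 7 fell, against 18.6% of all genes called higher and 2126 of the 13613 called lower. Rchy1 fell by 0.34 ± 0.08 in CM against MG-CM (adjusted p = 0.0312) and no other regulator was called without pairing, where 5.39% of all genes were called lower. With pairing 2 rose (Mdm4 and Hipk2) and 2 fell (Rchy1 and Cdkn2a), and DESeq2 called 1 higher and 2 lower. The paired fit called 1577 of the 13613 genes higher and 12.8% lower, and DESeq2 called 1207 higher and 1309 lower. The unpaired call of Rchy1 was lost without replicate 2 or 3 of any medium.

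Of 7 other cyclin-dependent kinase inhibitors, 2 rose in CM-JAKi over CM: Cdkn1b (p27), by 0.59 ± 0.11 (adjusted p = 0.00910), and Cdkn2c (p18), by 0.54 ± 0.15 (adjusted p = 0.0353). The 2 that fell in CM against MG-CM were Cdkn1b by 0.60 ± 0.11 (adjusted p = 0.0160) and Cdkn1c (p57) by 1.18 ± 0.32 (adjusted p = 0.0491). Of all tested genes, 10.1% were called higher in the first comparison and 5.39% lower in the second. Cdkn1b was called in 9 of 9 fits that left out 1 library in the first comparison and 8 of 9 in the second, Cdkn2c in 3 and Cdkn1c in 2. With pairing 5 of the 7 rose in CM-JAKi over CM, the added ones being Cdkn1c, Cdkn2a and Cdkn2b, and 4 fell in CM against MG-CM, the added ones being Cdkn2a and Cdkn2c. The paired shares of all genes were 18.6% higher in the first comparison and 12.8% lower in the second.

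Of 12 tested genes of the BCL2 family besides Bax and Bbc3, 3 rose and 1 fell in CM-JAKi over CM. Among all genes 10.1% were called higher and 8.93% lower. The BH3-only gene Bmf rose by 0.99 ± 0.17 (adjusted p = 0.00626), the antiapoptotic gene Bcl2 by 0.91 ± 0.17 (adjusted p = 0.00845) and Bok by 0.50 ± 0.15 (adjusted p = 0.0488), while the antiapoptotic gene Mcl1 fell by 0.33 ± 0.08 (adjusted p = 0.0291). The 2 that fell in CM against MG-CM were Bok by 1.00 ± 0.15 (adjusted p = 0.00990) and Bmf by 0.75 ± 0.16 (adjusted p = 0.0264), against 5.39% of all genes called lower. Thus genes for and against apoptosis were among those that rose with the inhibitor. Bmf and Bcl2 kept their calls in CM-JAKi over CM in 9 of 9 fits that left out 1 library, Mcl1 in 5 and Bok in 2, and in CM against MG-CM Bok kept its call in 9 and Bmf in 5.

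Among 11 tested relatives of the members, 2 rose (Cdkn1b and Bok) and 1 fell (Phlda1) in CM-JAKi over CM, and 3 fell in CM against MG-CM (Cdkn1b, Cdkn1c and Bok). Cdkn1b, Cdkn1c and Bok are also counted in the lists above. Shares of all genes were 10.1% higher and 8.93% lower in CM-JAKi over CM, and 5.39% lower in CM against MG-CM. With pairing 3 rose and 2 fell in CM-JAKi over CM, against 18.6% of all genes called higher and 2126 of the 13613 called lower. Downstream of Fas, 1 of 8 tested genes was called in CM-JAKi over CM: Ripk1, a kinase of death receptor signalling, fell by 0.43 ± 0.08 (adjusted p = 0.00832). Phlda1, of the same family as Phlda3, fell by 0.65 ± 0.16 (adjusted p = 0.0231) where Phlda3 rose, a call kept in 6 of 9 fits that left out 1 library. Of 16 genes of cell cycle progression, 1 was called in that comparison, the checkpoint kinase gene Bub1, which fell by 0.40 ± 0.10 (adjusted p = 0.0220, kept in 6 of 9 such fits), and the list's median was -0.09. With pairing 4 of the 16 fell there: Bub1, Mki67, Top2a and Pcna. No gene of these cycle and Fas lists was called by edgeR in CM against MG-CM without pairing, and 1 of each had an unadjusted p under 0.05. With pairing Bub1 (adjusted p = 0.0346) and Ripk1 (adjusted p = 0.0471) rose, and with DESeq2 1 cycle gene and no Fas pathway gene was called.

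In CM-JAKi against MG-CM none of the other targets, regulators, relatives, kinase inhibitors, BCL2 family, Fas pathway or cycle genes was called by edgeR without pairing. Of all tested genes, 1.01% were called. With pairing Tap1 (adjusted p = 0.0342), Phlda1 (adjusted p = 0.0115) and Sirt1 (adjusted p = 0.0421) fell. DESeq2 called 1 other target and 1 relative lower, and 1 gene of the BCL2 family in each direction. An unadjusted p under 0.05 was found for 3 other targets, 1 regulator, 2 relatives, 3 BCL2 family genes, 1 Fas pathway gene and none of the rest. Tap1 came nearest without pairing, at -1.26 ± 0.24 (adjusted p = 0.0505).

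**Figure D4:**
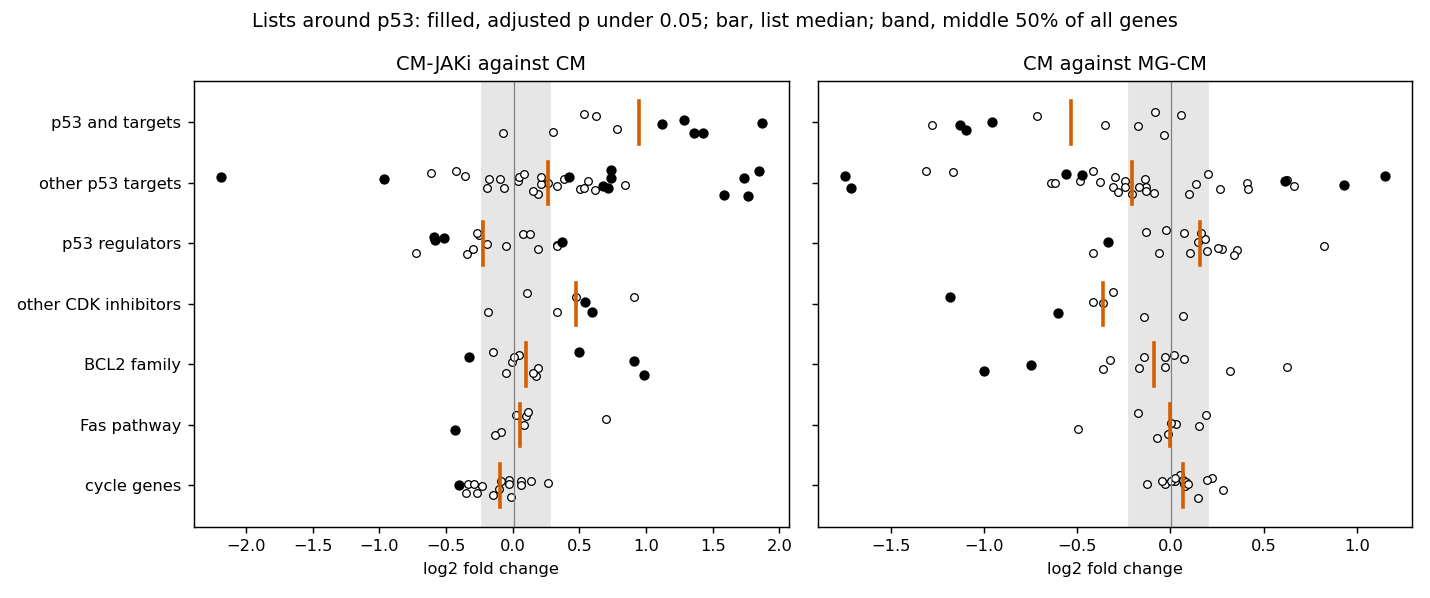
Log2 fold change of each tested gene (x axis) in 7 lists, CM-JAKi against CM on the left and CM against MG-CM on the right; filled points passed an adjusted p of 0.05, the orange bar is the list median, and the grey band spans the quartiles of all tested genes. The medians of p53 and its targets, 0.95 and -0.53, lie outside the band, and those of the BCL2 family, Fas pathway and cycle genes lie inside it.

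Correlations over the 9 libraries are given as descriptions, since the libraries share lines and media. Pearson's r of log2 CPM was 0.977 between Mdm2 and Bbc3, 0.916 between Cdkn1a and Bbc3, 0.964 between Phlda3 and Trp53inp1, 0.929 between Ccng1 and Trp53inp1, 0.900 between Ccng1 and Bax, 0.831 between Ccng1 and Mdm2 and 0.770 between Cdkn1a and Phlda3. Pairs of targets not in this list ran from 0.925 between Bax and Bbc3 down to 0.416 between Cdkn1a and Sesn1. Among them Sesn1 had 0.919 with Trp53inp1, 0.882 with Fas and 0.876 with Phlda3. Sesn1 had 0.444 with Bbc3 and 0.476 with Mdm2, and Fas had 0.481 with Bbc3 and 0.487 with Cdkn1a. Trp53 had r between -0.126 (Sesn1) and 0.618 (Bax) with the other 9. Among 10240 candidate genes, the closest in pattern to Mdm2 was Tnfrsf10b (r = 0.984), to Phlda3 Ei24 (r = 0.991), to Trp53inp1 Ephx1 (r = 0.987), to Sesn1 Prkaca (r = 0.989) and to Ccng1 Negr1 (r = 0.990). The closest to Cdkn1a was Rnf41 (r = 0.952), to Fas Fbxl4 (r = 0.975), to Bax Stat6 (r = 0.970), to Trp53 Ddx56 (r = 0.995), and to Bbc3 was Mdm2 itself.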

How the data were processed

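Total RNA of 9 cultures was depleted of ribosomal RNA and sequenced from stranded libraries, per the labels' protocols. Tools named by the submitters' processing notes, without roles, are RSEM (1.2.29), STAR (2.5.1b) and DESeq2, with builds mm9 and NCBIM37. Whether counting used the strand was not given in the sources used here. The deposited values were taken to be expected counts per gene made by the authors, whole numbers not scaled between libraries. In R 4.3.3 with edgeR 4.0.16, genes were filtered by filterByExpr (minimum count 10, total 15), scaled by TMM and fitted over all 9 libraries with 1 term per group (robust quasi-likelihood, prior count 2). CPM, line and interaction fits used the same steps. The group, paired, line and CM interaction fits were run on simulated data in which libraries varied independently. Shared deviations of same-numbered libraries were not simulated, nor was the interaction for the CM-JAKi change. DESeq2 1.42.0, pairing, a line term, no filter, library-size scaling, 2 groups alone and leaving out libraries were alternatives.

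Replicate numbers were taken to pair the libraries because each number marks 1 line and 1 source of conditioned medium per the labels. Deviations from group means of same-numbered libraries correlated at 0.291 to 0.680 in 9 pairs, against -0.536 to 0.279 in 18 others. Taking each deviation from its own group mean lowers the values of different-numbered pairs. All negative values involved replicate 1 (PSC4), and values between replicates 2 and 3 ran from 0.00871 to 0.279. Much of this contrast is therefore between PSC4 and PSC5, and it does not establish the pairing within PSC5. All members were named whatever their result. From each other list up to 4 called genes with the smallest p were named, or up to 2 where none was called. Markers were counted by list. Some genes stand in several of the other lists, so the counts of those lists are not separate results. The members and lists were chosen with earlier results of these data known.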

Additional observations from a re-analysis of the deposited data

Results flagged for a closer look

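Pmaip1, which encodes the BH3-only protein NOXA and is listed among the other p53 targets, passed the threshold in the interaction of line and medium for its change with the inhibitor, a fit with 1 PSC4 library per medium. It had 8.56, 17.5 and 19.6 CPM in CM-JAKi, 19.7, 12.98 and 11.5 CPM in CM, and 8.78, 10.6 and 9.28 CPM in MG-CM (replicates 1, 2 and 3). The CM-JAKi library was below the CM library in PSC4 and above it in both PSC5 replicates. The change in PSC4 minus that in PSC5 was -1.81 ± 0.24 on the log2 scale (edgeR interaction of line and medium, adjusted p = 0.0391). The spread comes from PSC5 alone, and the lone PSC4 libraries are assumed to vary like those, so the difference has no replicate check in PSC4. The call was lost with library-size scaling (adjusted p = 0.0579), and its adjusted p was 0.0216 without the filter on low counts and 3.09e-05 with DESeq2. Line and source of conditioned medium cannot be told apart here.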

How the results depend on the processing

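With same-numbered libraries paired (the replicate block), 3325 genes were called in CM against MG-CM, against 1394 without the block, with 5 members against 3, the added ones being Fas and Ccng1. The block gave 4655 against 2585 genes in CM-JAKi against CM, where it added Mdm2 (adjusted p = 0.0269) and Bax (adjusted p = 0.0493), and 579 against 137 in CM-JAKi against MG-CM. It changed no other member's call. A line term gave 3216 genes and 5 members, 4532 genes and 523 genes in the same 3 comparisons. Fitting only the 2 groups compared gave 787 genes in CM against MG-CM and 1644 in CM-JAKi against CM. DESeq2 called 2516 genes in CM against MG-CM and 512 in CM-JAKi against MG-CM. For the line difference of the CM change, 31 genes were called, against 53 with library-size scaling, 71 without the filter and 429 with DESeq2. For that of the CM-JAKi change, 50 were called, against 85 without the filter and 352 with DESeq2, which called 1 member.

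Leaving out libraries or whole replicates moved the genes called between 8 and 1707 in CM against MG-CM, 242 and 2953 in CM-JAKi against CM, 0 and 457 in CM-JAKi against MG-CM, and 423 and 3010 in PSC4 against PSC5 (2862 with all). Members called ran from 0 to 4, 1 to 9, 0 to 1 and 1 to 6. The members' median ran from -0.73 to -0.36, 0.67 to 1.13 and 0.16 to 0.56 in the media comparisons.

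The members' changes that turned sign were not called. With library-size scaling, Trp53 was at -0.0131 in CM against MG-CM, 0.0169 in CM-JAKi against CM and 0.00382 in CM-JAKi against MG-CM. With libraries left out, Trp53 ran from -0.0810 to 0.143 in the first, -0.224 to 0.0814 in the second and -0.170 to 0.135 in the third. In CM against MG-CM, Mdm2 ran from -0.192 to 0.119, Cdkn1a from -0.808 to 0.0454 and Bbc3 from -0.275 to 0.0802, and in PSC4 against PSC5 Fas ran from -0.246 to 0.0743. The cause was not tested. At 3 replicates, the media changes of Cdkn1a, Ccng1, Mdm2, Bbc3, Phlda3 and Trp53inp1 carry intervals wider than 1 log2 unit. Their absence from a count is not evidence of no change.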
